A study of Mus musculus with 2 samples.

Results

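The small leucine-rich proteoglycans are described here by 8 genes, Dcn, Bgn, Lum, Kera, Fmod, Omd, Epyc and Ogn, of the 31053 genes counted in each library. Their rows were taken by name alone, as every row whose gene symbol matched a member, and each symbol matched 1 row. The members themselves were chosen with earlier results of these data known. Single-cell transcriptomes of mouse eye cups at e15.5 were compared between a Myrf fl/fl control, whose Myrf alleles are floxed but intact, and an Rx>cre Myrf fl/fl mutant, in which Cre recombinase driven by Rx regulatory sequence, active in the early eye field, acts on the floxed Myrf alleles. Both groups carried the floxed alleles and differed in the Cre transgene. Each genotype was represented by 1 library of 3 pooled eye cups, from which cornea, lens and optic nerve had been dissected away before dissociation with papain. With 1 library per genotype no test between genotypes was possible, so every interval below is a 95% interval for counting error only and does not cover the spread between embryos or preparations.

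Small leucine-rich proteoglycans are secreted proteins built around a curved repeat of leucine-rich units, and many carry glycosaminoglycan chains. They bind collagen fibrils and influence their diameter and spacing, which in the cornea is part of what makes the stroma transparent, and some of them also bind growth factors of the TGF-beta family. In the eye they are made largely by mesenchymal cells of neural crest origin, which give rise to the corneal stroma and endothelium, most of the sclera and the tendons of the eye muscles. By sequence they form classes. Dcn (decorin) and Bgn (biglycan) belong to class I and carry chondroitin or dermatan sulfate. Lum (lumican), Kera (keratocan), Fmod (fibromodulin) and Omd (osteomodulin) belong to class II and can carry keratan sulfate. Epyc (epiphycan) and Ogn (osteoglycin, also called mimecan) belong to class III.

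Several of these genes are neighbours in the genome. On GRCm38, Dcn (ENSMUSG00000019929, chr10:97479609-97518143), Lum (ENSMUSG00000036446, chr10:97565128-97572703), Kera (ENSMUSG00000019932, chr10:97606879-97613692) and Epyc (ENSMUSG00000019936, chr10:97644068-97682454) lie in this order on the + strand, with gaps of 47.0, 34.2 and 30.4 kb. Omd (ENSMUSG00000048368, chr13:49582462-49592822) and Ogn (ENSMUSG00000021390, chr13:49608046-49624501) follow each other on the + strand, 15.2 kb apart. Fmod (ENSMUSG00000041559, chr1:134037254-134048277) and Bgn (ENSMUSG00000031375, chrX:73483602-73495933) have no other member next to them. RefSeq promoter windows, from 250 bases before to 50 bases from the RefSeq start, were at hand for 6 of the 8 genes. Those of Kera and Epyc are shown because these adjacent genes had their highest levels in different mesenchyme cells, and that of Ogn because its level in pigment epithelium was within the range of the mesenchyme. Capitals mark the letters CANNTG, the E-box core that basic helix-loop-helix factors such as Twist1 and Scx recognise. It was searched on both strands, on which it reads the same.
Kera (GRCm38.p6, chr10:97606955-97607254, + strand): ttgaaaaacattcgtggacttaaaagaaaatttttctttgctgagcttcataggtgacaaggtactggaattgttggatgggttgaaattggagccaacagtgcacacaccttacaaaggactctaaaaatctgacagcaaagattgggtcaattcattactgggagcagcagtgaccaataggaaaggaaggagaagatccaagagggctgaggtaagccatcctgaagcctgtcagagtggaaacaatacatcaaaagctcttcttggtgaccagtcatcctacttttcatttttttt
Epyc (GRCm38.p6, chr10:97643818-97644117, + strand): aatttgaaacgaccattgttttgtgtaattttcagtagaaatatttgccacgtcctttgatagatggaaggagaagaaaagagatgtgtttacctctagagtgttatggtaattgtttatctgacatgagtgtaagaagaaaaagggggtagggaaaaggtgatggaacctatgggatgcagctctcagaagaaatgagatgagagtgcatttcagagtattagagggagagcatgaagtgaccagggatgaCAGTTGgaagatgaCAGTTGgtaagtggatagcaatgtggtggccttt
Ogn (GRCm38.p6, chr13:49607765-49608064, + strand): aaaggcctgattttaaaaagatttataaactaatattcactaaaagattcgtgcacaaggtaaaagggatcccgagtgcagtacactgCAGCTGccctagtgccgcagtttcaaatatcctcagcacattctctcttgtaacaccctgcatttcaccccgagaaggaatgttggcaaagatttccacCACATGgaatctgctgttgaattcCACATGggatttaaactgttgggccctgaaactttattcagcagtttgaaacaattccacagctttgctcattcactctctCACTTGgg
The Ogn window held 4 such sites, the Epyc window 2 and the Kera window 0, while 72.3% of 32851 windows of the same length held at least 1. The Kera window lies inside the gene coordinates given above, since RefSeq starts the gene further downstream. Epyc has a second RefSeq start, whose window (chr10:97646853-97647152) also held 2. The windows of Bgn and Fmod held 1 each and that of Omd 0. These letters are a description of the sequence and do not show that a factor binds there.

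The control library held 13017 barcodes with a median of 9339 UMIs (unique molecular identifiers, each standing for 1 captured transcript) and the mutant library 13880 with a median of 8702, and 69 barcodes occurred in both. The filters left 11543 control and 12623 mutant cells in 33 clusters. Myrf itself gave 77.1 CPM (68.5 to 86.5) in control and 30.4 CPM (23.1 to 39.3) in mutant RPE-like cells, where CPM is the UMIs of a gene per 1000000 UMIs of the class. Myrf was thus lower in the mutant library but still detected. Where in the gene these 3′ UMIs lie relative to the floxed segment was not determined, so they do not measure the deletion. Xist UMIs were seen in 98.0% of control mesenchyme-like cells and Y-linked UMIs in 0.0417%, against 44.8% and 49.7% in the mutant, so the libraries differed in the sexes pooled. Because capture of 3′ tags differs between genes, levels are compared below between cells for a given gene, and not between genes.

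Mesenchyme-like cells were named from 8 markers that include Pdgfra, Twist1 and Prrx1, all of them detected, with a summed level of 1939 CPM in control and 1795 CPM in mutant. No member was used to cluster or name them. They comprised 2400 control and 1711 mutant cells, or 20.8% and 13.6% of the cells kept, and fell into 11 subclusters. S3 was keratocyte-like (led by A2m, Matn4, Kera, Col9a3 and Anks1b), S5 tendon-like (Meox2, Tnmd, Msc, Nppc and Grem1), S2 adventitial fibroblast-like (S100a6, Mfap5, Osr2, Nefl and Pitx1) and S9 sheath-like (Cdh10, Emcn, Crym, Pgf and Cldn11), from a marker list with Foxc1, Foxf2 and Aldh1a2. The others stayed unnamed and are called by number. S0 (Ube2c, Nusap1, Cenpf, Prc1 and Birc5) and S8 (Hist1h2ap, Cenpe, Hist1h1b, Top2a and Ccna2) were led by genes of dividing cells. The subtype of highest score in S8 was the keratocyte, at 1.00, but none of its markers was among the 10 genes that led S8 within the mesenchyme, and against all cells S8 was led by A2m, Kera and Matn4. S4 was led by Nts, Sorcs1, Ebf3, Mgat4c and Epha3, S6 by Tnn, Coch, Aspn, a and Tenm1, S10 by Ednrb, Cldn10, Maob, Dsc3 and Dkk1, S11 by Gata3, Pex5l, Tmeff2, Csmd3 and Foxl2 and S12 by Alx1, Cdh6, Epha5, Hpgd and Grp. S4 and S11 fitted the class least well. Their marker scores were higher for pericytes (0.801 and 0.725) than for mesenchyme (0.677 and 0.444), and of the 10 genes that led each against all cells, a different list from that just given, 0 in S4 and 3 in S11 were mesenchyme markers and 0 in either were markers of another class. All values in S4 and S11 below rest on this assignment.

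Mesenchyme-like cells held the majority of the UMIs of all 8 genes in both libraries. In control, the share was 97.0% (96.6 to 97.3) for Kera, 91.6% (90.4 to 92.7) for Epyc, 90.5% (90.3 to 90.7) for Dcn and 88.3% (88.0 to 88.5) for Lum. It was 80.5% (77.7 to 83.1) for Fmod, 77.0% (76.3 to 77.6) for Bgn, 72.5% (71.7 to 73.3) for Ogn and 64.8% (54.1 to 74.6) for Omd. The mutant shares ran from 57.5% for Omd to 94.9% for Kera. Other holders in control included cells left unnamed, with 12.3% of Bgn, 13.7% of Fmod, 11.3% of Ogn and 6.80% of Lum UMIs. Most of these UMIs lay in S1 and S13, subclusters split from the same pool of mesenchyme clusters but kept out of the class, which held 1930 and 176 of the 2195 unnamed Bgn UMIs, 111 and 5 of 117 for Fmod, 1170 and 128 of 1344 for Ogn and 3593 and 688 of 4528 for Lum. RPE-like cells held 10.6% of Ogn UMIs, pericyte-like cells 6.56% of Bgn and 15.4% of Omd UMIs, and retinal progenitor-like cells 7.69% of the 91 Omd UMIs.

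Erythroid-like cells, which should not make these proteins, show a level that free RNA in the droplets can give. They stood between 0 CPM for Fmod and Omd and 6.97 CPM for Dcn in control, and their highest value in the mutant was 7.44 CPM, for Lum. Neural classes stood higher for Dcn, so background may differ between classes. Dcn was at 10.9 CPM in control and 24.0 CPM in mutant retinal ganglion-like cells. In photoreceptor precursor-like cells it was at 18.0 CPM and 17.4 CPM. After every cell had been thinned to 2000 UMIs, no member gave a UMI in 97.9% of erythroid-like cells in control and in 95.9% in mutant. By the same measure 2.69% of control and 2.42% of mutant mesenchyme-like cells had none, and the median cell had UMIs of 3 members in each library. The median RPE-like cell had UMIs of 1.

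**Figure D1:**
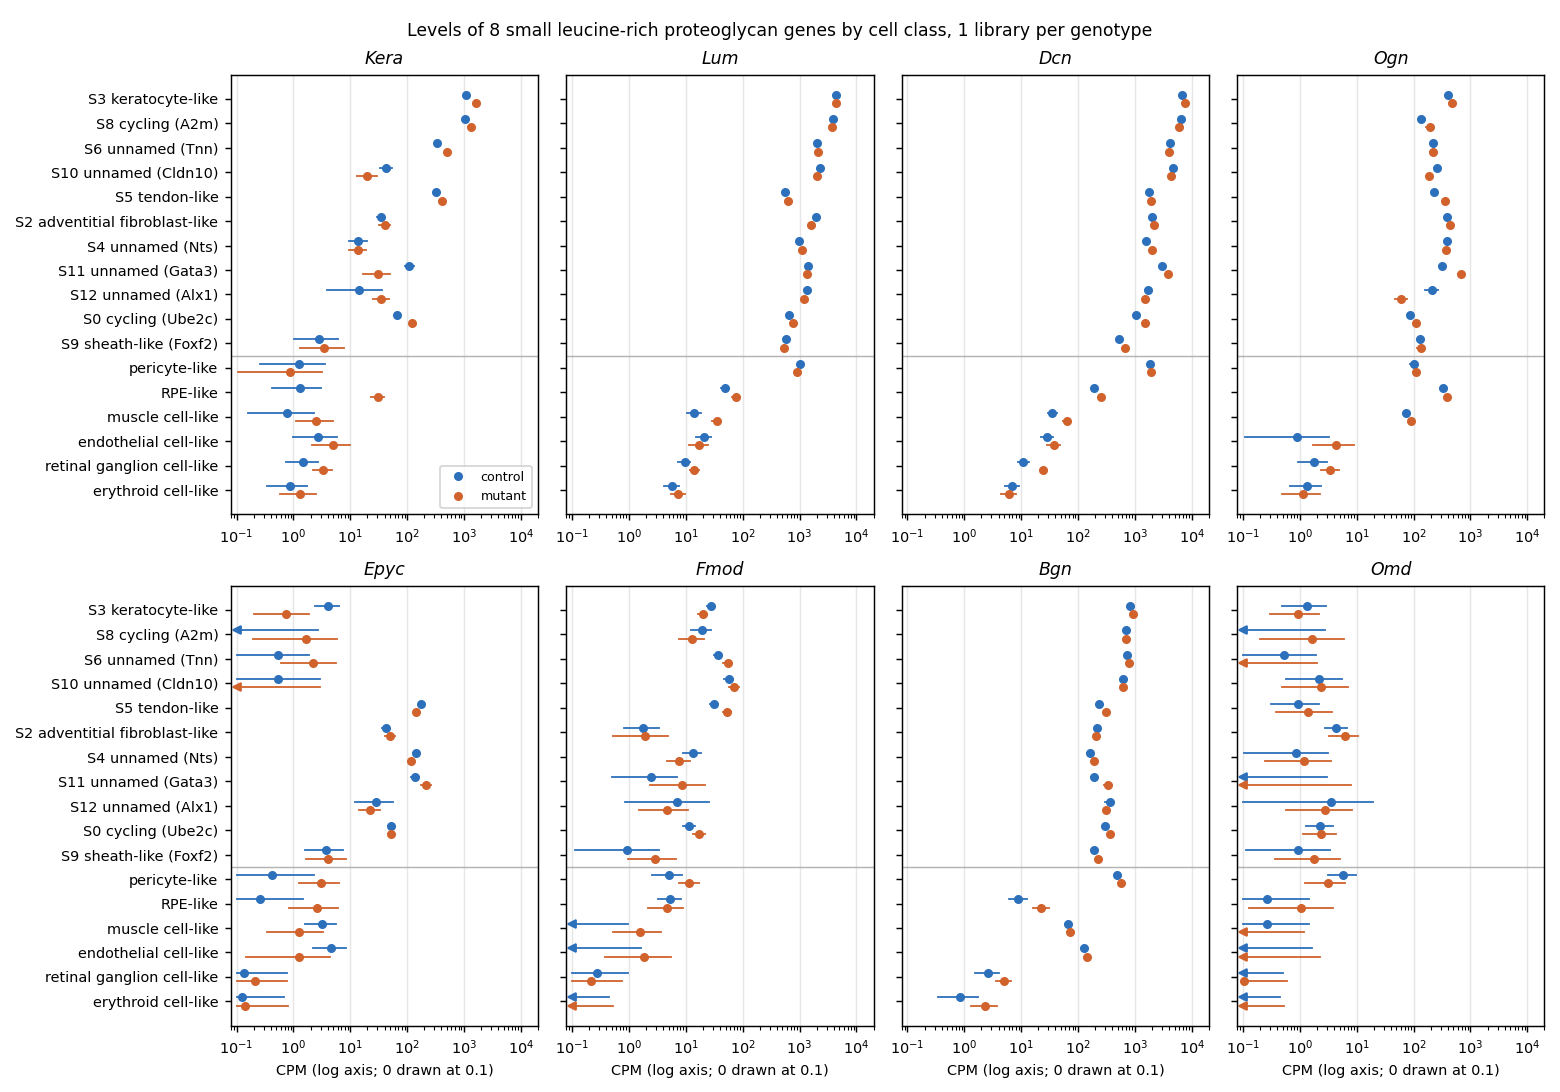
Level of each gene in CPM (log axis, 0 drawn as an arrowhead at 0.1) in the 11 mesenchyme-like subclusters above the line and in 6 other classes below it, with 1 point for the control and 1 for the mutant library and bars for exact 95% Poisson intervals. Kera ran from 2.78 CPM in S9 to 1082 CPM in S3 in control, Ogn in RPE-like cells (332 CPM and 389.5 CPM) lay within the range of the subclusters, and Omd was at or under 6.19 CPM in each of them.

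Dcn, which binds collagen and TGF-beta, was found in 85.0% of thinned control and 87.3% of thinned mutant mesenchyme-like cells (97.5% and 97.0% before thinning). It was highest in S3, at 6788 CPM (6712 to 6865) in control and 7511 CPM (7438 to 7585) in mutant, and lowest in S9, at 522 CPM (492 to 554) and 679 CPM (640.2 to 719). Every one of the 11 subclusters stood above the erythroid-like level in both libraries. A cell of S3 had between 3 and 312 Dcn UMIs in control, with a median of 100, and between 1 and 425 in mutant, with a median of 126. Pericyte-like cells, which wrap small vessels, also carried Dcn, at 1837 CPM in control and 1907 CPM in mutant.

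Bgn, the X-linked relative of Dcn, had the same 4 leading subclusters of the mesenchyme, S3, S6, S8 and S10, in another order, and was also found in vessel cells. It was highest in S3, at 803 CPM (777 to 829.5) in control and 919 CPM (894 to 945) in mutant, and next in S6, at 739 CPM (712 to 767) and 775 CPM (735 to 817). The lowest level was in S4 in both libraries, at 159 CPM (143 to 176) and 189.9 CPM (173 to 208). Its levels thus spanned a narrower range over the subclusters than those of Kera did. Pericyte-like cells carried 488 CPM (460.4 to 517) and 560.5 CPM (530.1 to 592), and endothelial-like cells 127 CPM (113 to 143) and 145 CPM (127 to 164). The 5 richest endothelial-like cells held 26.6% of the Bgn UMIs in control and 25.5% in mutant, and 88.9% and 83.6% of the Dcn UMIs. Bgn UMIs were therefore less concentrated in few endothelial-like cells than Dcn UMIs. After thinning, 80.3% of control and 75.7% of mutant endothelial-like cells had no UMI of any member.

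Lum, which is needed for a clear corneal stroma, also had its 4 highest levels in S3, S8, S10 and S6. It was highest in S3, at 4311 CPM (4249.8 to 4372) in control and 4444 CPM (4388 to 4500.4) in mutant, and then in S8, at 3889 CPM (3784 to 3995) and 3727 CPM (3620.1 to 3837). The lowest levels were in S5, at 564 CPM (544 to 585) and 624 CPM (595 to 654), and in S9, at 568 CPM (536 to 600.3) and 531 CPM (497 to 567). The control intervals of S5 and S9 overlapped. Lum was thus among its lowest in the tendon-like cells, where Dcn stood at 1784 CPM in control, above its level in S12, S4, S0 and S9.

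Kera, the keratocan gene and a marker of the cells that build the corneal stroma, was more unevenly spread. S3 stood at 1082 CPM (1052 to 1113) in control and 1635 CPM (1601 to 1669) in mutant, and S8 at 1047 CPM (993 to 1103) and 1308 CPM (1245 to 1373), with overlapping intervals in control. S6 followed at 340.0 CPM (322 to 359) and 502 CPM (469.9 to 536) and S5 at 326 CPM (311 to 342) and 418 CPM (394 to 442), again with overlapping intervals in control. S9 had 2.78 CPM (1.02 to 6.06) and 3.52 CPM (1.29 to 7.65), which overlapped the erythroid-like levels of 0.856 CPM (0.344 to 1.76) and 1.29 CPM (0.589 to 2.45). Kera thus could not be told from background in the sheath-like cells and reached its highest levels in the keratocyte-like cells. It was found in 67.5% of thinned control and 82.4% of thinned mutant S3 cells (92.0% and 93.6% before thinning). In erythroid-like cells the thinned shares were 0% and 0.242%, at median depths of 16862.5 and 16806 UMIs before thinning against 15488.5 and 16545 in S3. The median S3 cell had 12 Kera UMIs in control and 25 in mutant, and the 5 richest cells held 7.05% and 5.51% of the Kera UMIs of S3.

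Fmod, which binds type I collagen and is abundant in tendon, was sparse, with 685 control and 573 mutant UMIs in mesenchyme-like cells. It was highest in S10, at 56.7 CPM (46.4 to 68.6) in control and 70.6 CPM (56.6 to 87.0) in mutant. S6 came next, at 37.1 CPM (31.2 to 43.8) and 54.5 CPM (44.3 to 66.3), and then the tendon-like S5, at 31.7 CPM (27.1 to 36.9) and 53.8 CPM (45.6 to 63.0), with intervals that overlapped those of S6 in each library. In the mutant the interval of S10 overlapped those of S6 and S5. S2 had 9 and 4 UMIs, or 1.81 CPM (0.826 to 3.43) and 1.90 CPM (0.519 to 4.88). Fmod was thus near its lowest in the adventitial fibroblast-like cells, where its class II relative Lum stood at 1917 CPM in control.

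Omd, known from mineralising bone, was barely detected, with 59 control and 46 mutant UMIs in mesenchyme-like cells. Its level there was 1.72 CPM (1.31 to 2.22) and 1.87 CPM (1.37 to 2.50). The highest subcluster was S2, at 4.41 CPM (2.77 to 6.68) from 22 UMIs in control and 6.19 CPM (3.30 to 10.6) from 13 in mutant. Erythroid-like cells had 0 UMIs in both libraries, which allows a share of cells with a UMI of up to 0.593% in control and 0.693% in mutant. No further order among the subclusters was readable at this depth.

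Epyc, best known from growth cartilage, marked a different set of subclusters. It stood at 172 CPM (161 to 184) in control and 143 CPM (129 to 158) in mutant in the tendon-like S5, at 141 CPM (126 to 157) and 118 CPM (105 to 132) in S4, and at 138 CPM (118 to 160.2) and 214 CPM (174 to 261) in S11. The control intervals of S4 and S11 overlapped, and S11 was the highest of the 11 in the mutant. In the subclusters richest in Kera it was close to absent. S3 had 18 control and 4 mutant UMIs, or 4.05 CPM (2.40 to 6.40) and 0.743 CPM (0.202 to 1.90), and S8 had 0 and 2 UMIs. Both genes were found in the tendon-like S5, where Kera stood at 326 CPM in control and Epyc at 172 CPM.

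Ogn, a class III member first known from bone, had no single leading subcluster in control. There S3, S4 and S2 stood at 409.7 CPM (391 to 429), 394 CPM (369 to 420.2) and 383 CPM (366 to 400.4), with overlapping intervals. In the mutant S11 was highest, at 690.5 CPM (617 to 771) against 315 CPM (284 to 347) in control, followed by S3 at 470.0 CPM (452 to 489) and S2 at 438 CPM (409.8 to 467), whose intervals overlapped. The dividing S0 was lowest in control, at 85.2 CPM (78.2 to 92.6), and S12 in the mutant, at 61.2 CPM (47.3 to 77.9) against 208 CPM (158 to 268) in control. S8, whose Kera, Lum, Dcn and Bgn levels were within 1.5-fold of those of S3, had an Ogn level of 137 CPM (118 to 159) in control and 192 CPM (168 to 218) in mutant, below S3 in both.

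**Figure D2:**
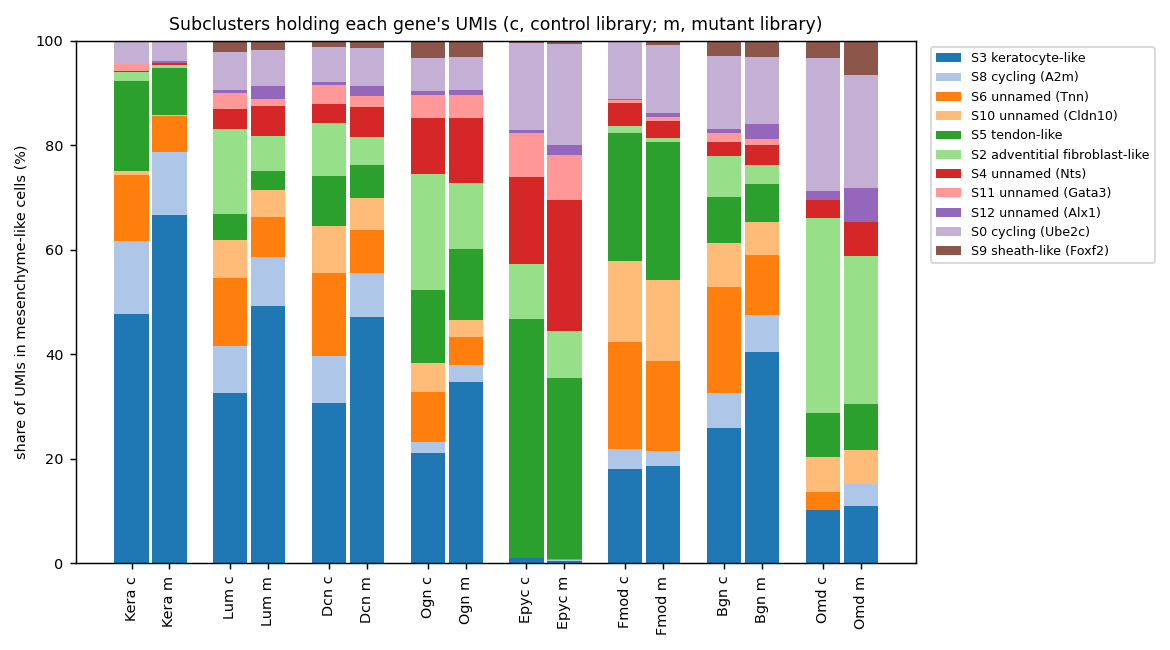
Share of each gene's UMIs in mesenchyme-like cells (%) by subcluster, 1 stacked bar per gene and library (c, control; m, mutant). The keratocyte-like S3 held 47.6% of Kera UMIs in control and 66.6% in mutant, but 0.901% and 0.343% of Epyc UMIs, of which the tendon-like S5 held 45.8% and 34.6%.

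Pairs of genes were compared across the 11 subclusters by Pearson's r of log2(CPM + 10), as a description, since the subclusters share a library and its depth. Dcn and Lum were the closest pair, with r of 0.90 in control and 0.91 in mutant. Bgn went with both, at 0.78 and 0.79 with Dcn and 0.77 and 0.76 with Lum. Epyc went against Bgn, at -0.78 and -0.67, and against Lum, at -0.58 and -0.52. The chromosome 10 neighbours Kera and Epyc had r of -0.24 and -0.31, and the chromosome 13 neighbours Omd and Ogn 0.10 and -0.21. Omd, with 59 control and 46 mutant UMIs in mesenchyme-like cells, was too sparse for its r to be read. On chromosome 10, adjacent genes were thus not uniformly alike in where they were detected. In single thinned cells, Bgn was found in 66.2% of control mesenchyme-like cells with a Kera UMI and in 43.8% of those without, and in 69.7% and 42.6% in mutant. Bgn was found in 32.6% of control cells with an Epyc UMI and in 50.2% of those without, and in 38.9% and 51.1% in mutant. These cells were pooled over the subclusters, so differences between subclusters contribute to such shares.

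**Figure D3:**
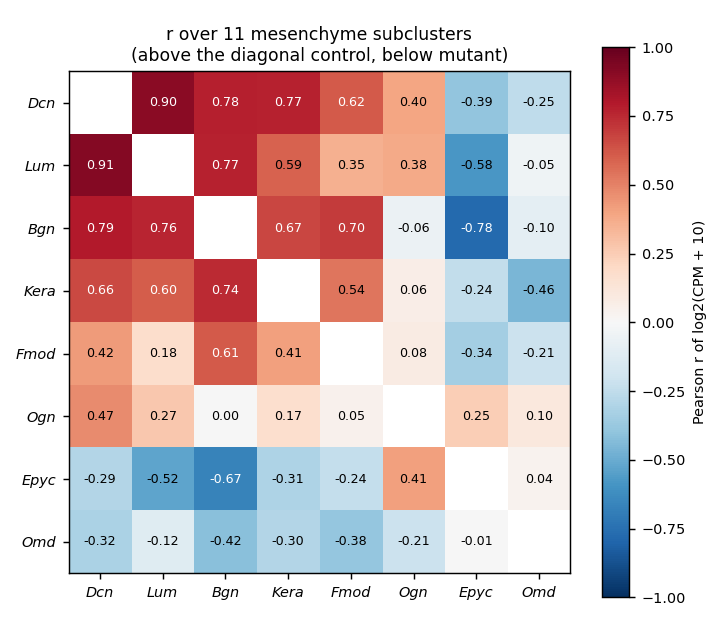
Pearson's r of log2(CPM + 10) between each pair of genes over the 11 mesenchyme-like subclusters, control library above the diagonal and mutant library below it. Dcn, Lum, Bgn and Kera were positively related to each other in both libraries (0.59 for Kera and Lum to 0.91 for Dcn and Lum), and Epyc was negatively related to all 4.

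The genes most like each member over all 41 clusters and subclusters were named by the mean r of both libraries, a value to which the contrast between mesenchyme and other cells contributes. Lum was nearest to Dcn (0.987), Col1a1 (0.977), a chain of type I collagen, and Ctsk (0.975), a protease. Dcn was nearest to Lum, Prrx1 (0.969), a transcription factor of mesenchyme, and Col1a1 (0.967). Bgn had Ddr2 (0.960), a collagen receptor, Scarf2 (0.958) and Ctsk (0.958), and Ogn had Olfml1 (0.959), Loxl1 (0.946), an enzyme of elastic fibre assembly, and Islr (0.942). Kera had Itga11 (0.903), a collagen-binding integrin, Col24a1 (0.886) and Wnt11 (0.885). Fmod had Egfl6 (0.942), Htra1 (0.890) and Aspn (0.882), itself a class I leucine-rich proteoglycan. Epyc had Grem1 (0.898), a BMP antagonist, Galnt16 (0.888) and Pamr1 (0.888). Omd, with few UMIs, had Rspo1 (0.748), Arhgap20 (0.743) and Cspg4 (0.719).

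Outside the mesenchyme, RPE-like cells carried a selective set of members. The RPE is the pigmented layer behind the neural retina, and these cells were named from 10 markers that include Rlbp1, Ttr and Tyrp1, of which 10 were detected in control and 9 in mutant. They numbered 364 in control and 197 in mutant, at medians of 7101 and 4181 UMIs. Ogn stood at 332 CPM (314 to 351) in control and 389.5 CPM (362 to 419) in mutant. It was found in 46.9% of thinned control and 47.6% of thinned mutant RPE-like cells (64.0% and 57.9% before thinning), and the 5 richest cells held 8.56% and 15.2% of its UMIs. In retinal ganglion-like cells, which should lack it, the thinned shares were 0.204% and 0.338%, at median depths of 11985 and 12300 UMIs. Ogn was thus above background in many RPE-like cells. Dcn was found in 24.1% and 21.8% of thinned RPE-like cells, Lum in 5.31% and 6.45%, and Bgn in 0.408% and 0.806%.

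The proportions of the members to each other differed between RPE-like and mesenchyme-like cells. There were 1.76 (1.60 to 1.93) Ogn UMIs per Dcn UMI in control RPE-like cells and 1.53 (1.36 to 1.72) in mutant. In mesenchyme-like cells the ratio was 0.0876 (0.0857 to 0.0896) and 0.0851 (0.0831 to 0.0871), and over the 11 subclusters it ran from 0.0211 to 0.252 in control and from 0.0328 to 0.201 in mutant. Erythroid-like cells had 0.193 (0.0912 to 0.372) and 0.190 (0.0772 to 0.411), and retinal progenitor-like cells 0.158 (0.106 to 0.231) and 0.159 (0.118 to 0.210). RPE-like cells thus lay above every mesenchyme-like subcluster and both of these classes. RPE-like cells without any UMI of Col1a1, Col1a2 or Col3a1 were shallower, with medians of 3051 UMIs in control and 2588 in mutant against 16464 and 10521 in those with such UMIs. In them Ogn stood at 336 CPM (309.7 to 364) in 237 control cells and 277 CPM (234 to 325) in 85 mutant cells. Dcn stood there at 151 CPM (133 to 169.5) and 133 CPM (104 to 168). Lum stood at 7.17 CPM (3.82 to 12.3) from 13 UMIs and 3.74 CPM (0.453 to 13.5) from 2, close to its erythroid-like level of 5.62 CPM in control and 7.44 CPM in mutant.

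**Figure D4:**
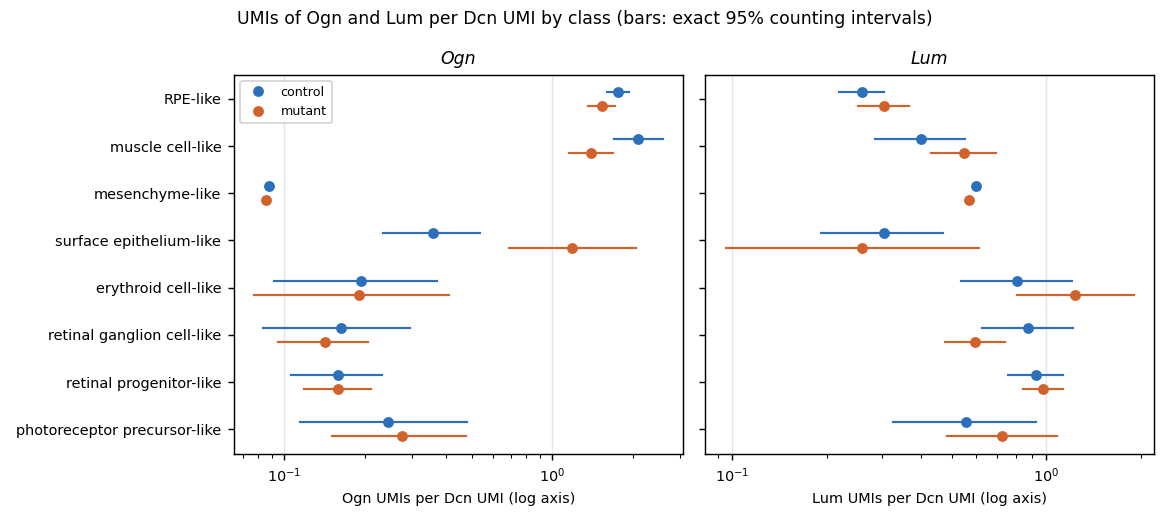
UMIs of Ogn (left) and Lum (right) per Dcn UMI in 8 classes (log axis), 1 point per library with exact 95% counting intervals. For Ogn the RPE-like cells lay at 1.76 in control and 1.53 in mutant, muscle cell-like cells at 2.09 and 1.39, and mesenchyme-like cells at 0.0876 and 0.0851.

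Muscle cell-like cells, named from markers such as Pax7 and Myod1, also carried Ogn, at 73.9 CPM (65.5 to 83.1) in control and 88.9 CPM (78.8 to 99.9) in mutant, and Bgn, at 66.6 CPM (58.6 to 75.3) and 73.0 CPM (63.9 to 83.1). The 5 richest cells held 15.6% and 17.9% of the Ogn UMIs, but 66.7% and 74.5% of the Lum UMIs. Ogn UMIs were therefore less concentrated in few cells than Lum UMIs. After thinning, 72.4% of control and 67.9% of mutant muscle cell-like cells had no UMI of any member.

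The genotypes were compared in mesenchyme-like cells, where Myrf itself was close to absent, at 1.69 CPM (1.29 to 2.19) in control and 1.14 CPM (0.757 to 1.65) in mutant. A gene was counted as past the fold when the ratio of CPM, mutant library to control library, was beyond 1.5-fold in either direction with a counting interval off 1. Of 14441 genes with at least 20 UMIs, 740 were past it, or 5.12%, and the median log2 ratio was -0.02. Of the 8 members 1, Kera, was past it, and the median log2 ratio of the 8 was 0.23. Of the other members, Dcn, Lum, Bgn, Ogn and Fmod were higher in the mutant library by less than the fold, Epyc was lower by less than the fold, and the interval of Omd included 1.

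Kera was at 295 CPM (289 to 301) in the control library and 538 CPM (529 to 547) in the mutant, a ratio of 1.82 (1.78 to 1.87), or 0.87 (0.83 to 0.90) on the log2 scale. S3, its richest subcluster, made up 11.9% (10.6 to 13.3) of control mesenchyme-like cells and 18.2% (16.4 to 20.1) of mutant ones. With the subclusters of both libraries weighted by their control shares, the log2 ratio was 0.61. Within S3 the ratio was 1.51 (1.46 to 1.57), within S6 1.48 (1.35 to 1.61), within S5 1.28 (1.19 to 1.38) and within S8 1.25 (1.16 to 1.34). Of 10 subclusters with enough UMIs, 5 had an interval above 1 and 2, S10 and S11, had one below 1. In cells with an Xist UMI and no Y-linked UMI the log2 ratio was 0.91. Within the mutant library such cells had 555 CPM (540.4 to 569), and cells with Y-linked and no Xist UMIs 521 CPM (507 to 534). Kera was thus higher in the mutant library within S3 and among cells with Xist and no Y-linked UMIs, and lower within S10 and S11. The parts of subcluster shares and of sex in the difference were not tested. The share of S3 moved with the level of Kera in the class, and the part that dissection of the cornea had in that share was not tested.

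The other members differed less. Dcn was at 2876 CPM (2858 to 2894) in control and 3489 CPM (3465 to 3512) in mutant, a log2 ratio of 0.28 (0.27 to 0.29), and Lum at 1718 CPM (1704 to 1732) and 1982 CPM (1964 to 1999.5), a log2 ratio of 0.21 (0.19 to 0.22). With control shares of the subclusters these became 0.16 and 0.06. Bgn had 0.31 (0.27 to 0.34), Ogn 0.24 (0.19 to 0.28), Fmod 0.22 (0.06 to 0.38) and Omd 0.12 (-0.47 to 0.70). Epyc was at 58.4 CPM (55.8 to 61.0) in control and 47.5 CPM (44.8 to 50.3) in mutant, a log2 ratio of -0.30 (-0.40 to -0.19), which became -0.13 with control shares. The tendon-like S5, which held the largest part of its control UMIs, made up 16% (14.6 to 17.5) of control and 12.4% (10.9 to 14) of mutant mesenchyme-like cells. Within S5, where 4.57% of all genes were past the fold, Ogn and Fmod were past it, at 1.55 (1.42 to 1.68) and 1.70 (1.35 to 2.13). Within S11, with 131 control and 55 mutant cells, 9.28% of all genes were past it. Ogn was past it there at 2.20 (1.89 to 2.55), Bgn at 1.76 (1.43 to 2.16) and Epyc at 1.55 (1.2 to 2.00), while Kera was past it the other way at 0.276 (0.147 to 0.480). All 10 of the fibrillar and fibril-associated collagens were also past the fold and higher in S11. In the other mesenchyme-like subclusters the members past the fold were Kera and Fmod in S0, at 1.81 (1.59 to 2.07) and 1.52 (1.09 to 2.13), Epyc in S3, at 0.183 (0.0451 to 0.557) from 18 and 4 UMIs, Kera in S10, at 0.469 (0.286 to 0.742), and Ogn in S12, at 0.295 (0.204 to 0.426), besides Kera in S3. Of the 18 control Epyc UMIs in S3, 13 were in 1 cell. In S0 the richest cell for Kera held 37 of 435 UMIs in control and 89 of 518 in mutant. The richest cell for Fmod held 5 of 74 and 11 of 74. The shares of all genes past the fold were 4.28% in S0, 4.37% in S3, 5.47% in S10 and 7.52% in S12.

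**Figure D5:**
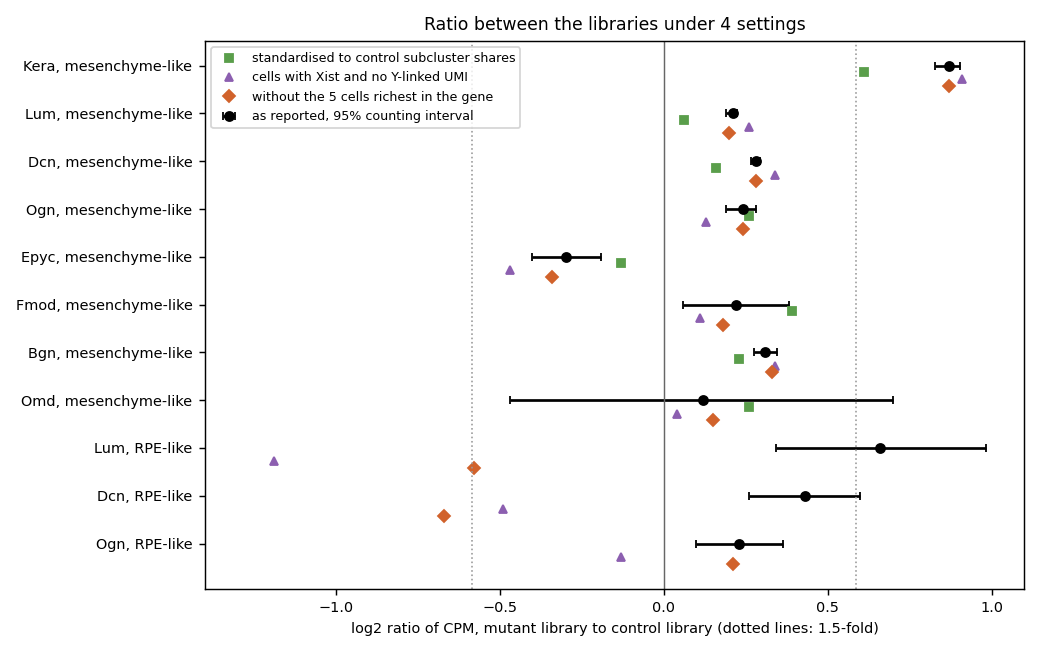
Log2 ratio of CPM, mutant library to control library, as reported with its 95% counting interval (black) and under 3 other settings (colours), for the 8 genes in mesenchyme-like cells and 3 genes in RPE-like cells. Kera lay beyond the 1.5-fold line in each setting, at 0.61 to 0.91, and without their 5 richest cells Dcn in RPE-like cells changed sign and Lum fell to a value whose interval included 0.

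Genes that act with the members were counted in mesenchyme-like cells from fixed lists, where 5.12% of all genes were past the fold. Of 10 other leucine-rich proteoglycans, 7 had enough UMIs and 2 were past it, Prelp, a class II relative that anchors basement membranes, at 2.36 (1.38 to 4.14) from 23 control and 39 mutant UMIs, and Tsku at 1.54 (1.28 to 1.85). The median log2 ratio of the 7 was 0.32. Of 10 fibrillar and fibril-associated collagens, to which members bind, 2 were past it, Col5a1 at 1.5 (1.48 to 1.53) and Col1a1 at 1.5 (1.49 to 1.51), and the median was 0.51. Both intervals included 1.5, so the limit did not set these 2 clearly apart from collagens just below it. Of 6 genes of keratan sulfate synthesis 2 were past it, B3gnt7, which extends the chain, at 2.09 (1.77 to 2.47) and Chst5, a sulfotransferase, at 1.55 (1.41 to 1.70), and the median was 0.04. Of 20 genes of chondroitin and dermatan sulfate synthesis 1, the sulfotransferase gene Chst3, was past it, at 1.52 (1.07 to 2.18) from 63 and 69 UMIs, and the median was 0.07. Of 7 TGF-beta ligands and latent binding proteins 0 were past it, with a median of 0.17. In these 5 lists 0 genes were past the fold in the lower direction. Tsku, Col5a1, Col1a1, Chst5 and Chst3 were named after their values had been seen, because so few genes were past the fold.

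In RPE-like cells 6 members had enough UMIs for a ratio, and 3 of them, Kera, Lum and Bgn, were past the fold and higher in the mutant library, where 6.27% of 11005 genes were past it in either direction. Their UMIs were in few cells. Kera had 5 UMIs in control and 58 in mutant, of which 46 were in a single cell. For Lum the 5 richest cells held 71.5% of 186 UMIs in control and 88.5% of 148 in mutant, and for Bgn 73.5% of 34 and 86.0% of 43. Without the 5 richest cells of each library the log2 ratio of Lum went from 0.66 (0.34 to 0.98) to -0.58 (-1.47 to 0.23), from 53 control and 17 mutant UMIs and with an interval that included 0. That of Dcn went from 0.43 (0.26 to 0.60) to -0.67 (-0.92 to -0.43). Ogn, spread over many cells, had 0.23 (0.10 to 0.36) with and 0.21 (0.07 to 0.35) without them. The collagens went the same way, 9 of 10 being past the fold and higher in the mutant library, with Col1a1 at 94.7 CPM in control and 257 CPM in mutant. The 8 mesenchyme markers, all detected, summed to 70.0 CPM in control and 89.0 CPM in mutant RPE-like cells. The 7 erythroid markers, of which 6 were detected in control and 7 in mutant, summed to 6051 CPM and 15013 CPM, and the 8 retinal progenitor markers, all detected, to 1122 CPM and 1553 CPM. The part of these other cell types in the result was not tested. Among RPE-like cells without collagen UMIs the log2 ratio was -0.18 (-0.58 to 0.20) for Dcn, an interval that included 0, and -0.28 (-0.55 to -0.02) for Ogn. These data therefore gave no direction for Lum, Dcn or Ogn in RPE-like cells that held under each setting.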

How the data were processed

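Eye cups of e15.5 mouse embryos were profiled with droplet-based 3′ single-cell RNA-seq, in 1 control and 1 mutant library of 3 pooled eye cups each. The deposited values were raw UMI counts per gene and barcode, not normalized, which the authors made with Cell Ranger. The submitters' processing notes give version 7.1.0, whereas the header of the matrices gives 3.1.0. The notes also name Seurat 4.1.1. The total was 132436812 UMIs in control and 135678970 in mutant.

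From these counts, barcodes with under 200 genes (235 and 150) or over 15% mitochondrial UMIs (879 and 733) were removed, then doublets called by Scrublet at an expected 8% (399, 3.34%, and 395, 3.03%). The upper limit of 2000 UMIs stated in the study's methods was tried only as an alternative, since it left 17 control and 20 mutant mesenchyme-like cells. Cells were clustered with scanpy 1.11.5 (30 principal components, 15 neighbours, Leiden resolution 1.0, and 0.5 within the mesenchyme) on variable genes without the members. A cluster was named "-like" from the marker list with the highest score (the mean standardised log2 level of its markers over clusters) where that score was at least 1.0 and at least 3 markers were detected in 5% of cells. It stayed unnamed where its median UMIs were below the library median divided by 3 and none of those markers was among its 10 leading genes, or where another list of similar score had more markers among them. Clusters with a mesenchyme score of at least 1.0 and no such low depth were pooled and reclustered (1015 cells of low depth with a score of 1.31 stayed out). A subcluster of the pool remained mesenchyme-like whatever its own score, which ran from 0.444 to 1.48 and in S4 and S11 was below their pericyte score, unless another class had more markers than the mesenchyme among its 10 leading genes or at least 2 retinal genes led it within the pool. Its subtype name needed a score of at least 1.0 and a marker of the subtype among the 10 genes that led it within the pool, whereas other classes were judged on the 10 that led it against all cells and retinal genes on both. These rules were set after the data had been seen. UMIs were summed per class and library. Intervals are exact at 95% (Poisson for CPM, Clopper-Pearson for shares, conditional binomial for ratios, from scipy 1.17.1). Ratios were formed where a gene had 20 or more UMIs in the libraries together. Cells were thinned to 2000 UMIs, leaving out shallower cells, to compare shares of cells with a UMI. Where a count was 0, the share of cells it allows was taken as 3 cells of the total. The scripts were tested on simulated data.

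The genes named in the text were all 8 members, the 3 genes most like each by mean r over both libraries among genes with at least 200 UMIs in each, the pathway genes with the 2 largest ratios in each direction past 1.5-fold, and the 5 leading genes of each mesenchyme subcluster. Members and lists were chosen with earlier results of these data known. The alternatives without the 5 richest cells, without cells holding collagen UMIs and over the whole mesenchyme pool, and the ratios of Ogn in RPE-like cells under each setting, were added after seeing the data. Promoter windows came from RefSeq (GRCm38.p6).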

Additional observations from a re-analysis of the deposited data

Results flagged for a closer look

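The cases below are those in which the log2 ratio of a member, mutant library to control library, went the opposite way to that in all mesenchyme-like cells, with both counting intervals off 0. Outside the mesenchyme every such case in a named class is given, and within it only subclusters past 1.5-fold, so that smaller opposite ratios of subclusters, such as -0.29 for Lum in S2 and -0.49 for Fmod in S3, and those of unnamed cells, such as 0.63 for Epyc, are not listed further. The difference was not tested in any of them, since each genotype had 1 library. In pericyte-like cells Lum had -0.20, against 0.21 in mesenchyme-like cells. In surface epithelium-like cells Lum had -2.36 from 28 control and 7 mutant UMIs, Dcn -2.13 from 92 and 27, and Bgn -1.64 from 17 and 7, and the 5 richest control cells held 96.4% of the Lum and 92.4% of the Dcn UMIs. Kera had -1.09 in S10, from 80 control and 25 mutant UMIs, and -1.86 in S11, from 136 and 14, of which the 5 richest cells held 33.8% and 92.9%. Epyc had 0.64 in S11, against -0.30 in mesenchyme-like cells. Ogn had -1.76 in S12, which comprised 29 control and 110 mutant cells.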

How the results depend on the processing

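With 1 library per genotype no replicate could be left out. No paired analysis was possible because each genotype had 1 library. Kera in mesenchyme-like cells kept its direction and stayed past 1.5-fold in 12 of 12 alternatives, and Bgn, Ogn, Fmod and Epyc kept their direction in 12 of 12, although the interval of Fmod included 0 with a mitochondrial limit of 5% (-0.20 to 0.24) and in cells with Xist and no Y-linked UMIs (0.11, -0.12 to 0.33). Dcn and Lum kept theirs in 12 of 13, the exception being without cells over 2000 UMIs, where 17 control and 20 mutant mesenchyme-like cells remained and only these members had enough UMIs for a ratio. Omd kept its direction in 11 of 12, the exception being -0.10 with a mitochondrial limit of 5%, under which Epyc went past 1.5-fold. In RPE-like cells Dcn kept its direction in 8 of 12 alternatives, Lum in 7 of 10 and Ogn in 7 of 12. In mesenchyme-like cells Omd and Fmod had the fewest UMIs of all members. The cause of the shifts was not tested, except that several settings leave fewer cells by construction. Of the log2 ratios in mesenchyme-like cells under the alternatives, 71 stayed within the counting interval of the reported value and these 27 did not. With a mitochondrial limit of 5% the ratio was 0.91 for Kera, 0.26 for Lum, 0.31 for Dcn, -0.60 for Epyc and 0.02 for Fmod, and without cells over 20000 UMIs the ratio was 0.64 for Kera, 0.04 for Lum, 0.13 for Dcn, 0.18 for Ogn, -0.18 for Epyc and 0.24 for Bgn. In cells with Xist and no Y-linked UMIs the ratio was 0.91 for Kera, 0.26 for Lum, 0.34 for Dcn, 0.13 for Ogn and -0.47 for Epyc, and with control shares of the subclusters the ratio was 0.61 for Kera, 0.06 for Lum, 0.16 for Dcn, -0.13 for Epyc, 0.39 for Fmod and 0.23 for Bgn. Without cells over 2000 UMIs the ratio was -0.04 for Lum and -0.16 for Dcn, and over the whole mesenchyme pool the ratio was 0.17 for Lum and 0.26 for Dcn. With the members among the clustering features the ratio was 0.29 for Dcn. In RPE-like cells these 15 left it. In cells with Xist and no Y-linked UMIs the ratio was -1.19 for Lum, -0.49 for Dcn and -0.13 for Ogn, and at resolution 2.0, where the class held 54 control and 29 mutant cells in place of 364 and 197, the ratio was -1.62 for Lum and -1.35 for Dcn. Without the 5 richest cells the ratio was -0.58 for Lum (-1.47 to 0.23) and -0.67 for Dcn, and with a mitochondrial limit of 5% the ratio was 1.5 for Dcn and -0.04 for Ogn. With doublets kept the ratio was 0.63 for Dcn, and without cells over 20000 UMIs the ratio was 0.01 for Dcn and -0.16 for Ogn. Without cells holding collagen UMIs the ratio was -0.18 for Dcn and -0.28 for Ogn, and without cells over 2000 UMIs the ratio was -0.19 for Ogn. Of the shares of control UMIs held by mesenchyme-like cells, 26 stayed within the interval and these 45 did not. With doublets kept the share was 90% for Kera, 81.7% for Lum, 84.1% for Dcn, 66.2% for Ogn, 87.2% for Epyc, 75.6% for Fmod and 70.6% for Bgn, and without cells over 20000 UMIs the share was 97.8% for Kera, 89.1% for Lum, 91.3% for Dcn, 78.8% for Ogn, 95.5% for Epyc, 83.3% for Fmod and 78.3% for Bgn. Without cells over 2000 UMIs the share was 19.2% for Kera, 15.3% for Lum, 17.3% for Dcn, 6.67% for Ogn, 0% for Epyc, 0% for Fmod and 7.41% for Bgn, and in cells with Xist and no Y-linked UMIs the share was 97.4% for Kera, 88.6% for Lum, 90.9% for Dcn and 73.6% for Ogn. With free RNA subtracted the share was 97.7% for Kera, 88.9% for Lum and 91% for Dcn, and with a mitochondrial limit of 5% the share was 90.3% for Lum, 92.3% for Dcn, 76.7% for Ogn, 89.3% for Epyc and 79.9% for Bgn. With the members among the clustering features the share was 86.9% for Lum, 88.7% for Dcn, 70.3% for Ogn, 76.9% for Fmod and 77.7% for Bgn, and at resolution 0.5 the share was 87.9% for Lum and 76% for Bgn. At resolution 2.0 the share was 85% for Lum, 86.7% for Dcn, 69.9% for Ogn, 77.2% for Fmod and 73% for Bgn.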

Other observations

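Within the mutant library, mesenchyme-like cells with Xist and no Y-linked UMIs (689 cells) and those with Y-linked and no Xist UMIs (774 cells) came from embryos of the same genotype and the same preparation. X-linked Bgn stood at 512 CPM (498 to 526) in the first and 479 CPM (467 to 492) in the second. Dcn stood at 3638 CPM (3602 to 3676) and 3334 CPM (3300.2 to 3368), and Lum at 2063 CPM (2035 to 2091) and 1889.6 CPM (1864 to 1915). Ogn stood at 276 CPM (266 to 287) and 315 CPM (304 to 325), and Epyc at 42.1 CPM (38.2 to 46.3) and 55.8 CPM (51.5 to 60.4), so these were lower where Dcn, Lum and Bgn were higher. How many embryos gave the cells of either kind is not known from the labels, and the differences were not tested.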
